A study of Mus musculus with 10 samples.

Results

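Hemoglobin is assembled from alpha-like and beta-like globin chains, and the genes of each kind lie in a cluster, in mice on chromosome 11 and on chromosome 7. The genes are used in turn during development. The first red cells of the yolk sac make embryonic chains, zeta from Hba-x and epsilon y and beta h1 from Hbb-y and Hbb-bh1, and the adult alpha and beta chains prevail in later red cells. Described here are 7 globin genes out of 55487 genes in the count tables, taken by name and split into 3 embryonic genes (Hba-x, Hbb-y and Hbb-bh1) and 4 adult genes (Hba-a1, Hba-a2, Hbb-bs and Hbb-bt).

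They were followed in nuclear RNA from HM-1, a line of mouse embryonic stem cells, and from the cells it forms on the way to blood in serum, with 2 libraries for each of 5 stages. ES libraries came from the undifferentiated cells, and HB libraries from FLK1+ cells, the hemangioblast, sorted with magnetic beads after 3 d of embryoid body culture. A further 2.5 d of blast culture with VEGF, IL-6 and conditioned medium gave the other stages, which were sorted as HE1 (KIT+ TIE2+ CD41-) and HE2 (KIT+ TIE2+ CD41+), an early and a later form of hemogenic endothelium, and as HP (KIT+ TIE2- CD41+), the hematopoietic progenitors. No allele or drug separates the stages. All come from 1 cell line, no surface marker of red cells was part of a sort, and each stage has 2 libraries, so the p-values rest on the spread within these pairs. The study describes the replicates of each cell type as biologically independent.

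By the coordinates of the count tables (mm10), the alpha-like genes lie on the forward strand of chromosome 11 in the order Hba-x (32276400 to 32278116), Hba-a1 (32283511 to 32284465) and Hba-a2 (32296489 to 32297298). The beta-like genes lie on the reverse strand of chromosome 7 in the order Hbb-y (103851749 to 103853216), Hbb-bh1 (103841637 to 103843164), Hbb-bs (103826534 to 103828096) and Hbb-bt (103812524 to 103813996). In both clusters the embryonic genes come first in the direction of transcription. Reads were counted on exons, of 613 to 938 bp in total per gene.

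The coding sequences bear on how fully each gene could be counted. The first 60 coding bases, from the A of the start codon, are given 5′ to 3′ from the GENCODE transcripts, and capitals mark the bases that differ from the adult gene at the head of each group.

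Hbb-bs (adult): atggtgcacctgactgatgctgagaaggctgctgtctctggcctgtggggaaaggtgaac
Hbb-bh1 (embryonic): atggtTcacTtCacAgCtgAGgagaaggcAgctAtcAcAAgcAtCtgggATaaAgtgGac
Hbb-y (embryonic): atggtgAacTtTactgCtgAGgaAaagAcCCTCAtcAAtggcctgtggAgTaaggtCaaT
Hba-a1 (adult): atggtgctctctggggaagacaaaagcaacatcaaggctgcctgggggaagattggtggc
Hba-x (embryonic): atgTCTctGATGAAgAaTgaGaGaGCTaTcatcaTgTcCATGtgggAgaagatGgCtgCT

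In this stretch Hbb-bh1 differs from Hbb-bs at 18 bases, Hbb-y at 19, and Hba-x differs from Hba-a1 at 28. The adult partners, Hbb-bt and Hba-a2, have the same 60 bases as Hbb-bs and Hba-a1. Over the whole coding sequence Hba-a1 and Hba-a2 differ at 1 of 429 bases, the substitution C381T, and Hbb-bs and Hbb-bt at 1 of 444, the substitution C417T (the base of the gene named first, its position from the start codon, the base of the partner). By contrast, the coding identity is 76.9% between Hbb-y and Hbb-bh1 and 66.4% between Hba-x and Hba-a1.

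Read pairs that align to several places were not counted, so this likeness bears on the adult counts. Of all stretches of 100 bases in the annotated transcripts of a gene, 79.5% of those of Hba-a2, 63.3% of Hba-a1, 54.8% of Hbb-bt and 49.7% of Hbb-bs also occur in the partner gene. None of the stretches of Hba-x, Hbb-y and Hbb-bh1 occur in another gene. Mouse strains also carry 1 of several forms of the adult beta genes, and Hbb-bs and Hbb-bt are the pair of the reference strain C57BL/6J, while other strains carry Hbb-b1 and Hbb-b2 in their place. Which pair HM-1 carries was not tested and Hbb-b1 and Hbb-b2 have no row in the count tables, so the adult beta values are reads placed on the reference pair and may be below the adult beta RNA of the cells. The counts of the adult genes therefore leave out pairs that cannot be placed, and how the rest divides within an adult pair is uncertain. Pairs lying over more than 1 gene were counted on all of these genes, but the exons of the 7 genes share 0 bases with exons of any other gene on the same strand. This setting could thus add only pairs that reach exons of separate genes, and whether such pairs occurred was not tested.

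The promoters of 6 of the 7 genes, all but Hbb-bh1, were found in the RefSeq table (build GRCm38.p6). The 140 bases before the RefSeq start are given 5′ to 3′ on the strand of the gene. For Hba-x, Hba-a1 and Hbb-bs these windows lie wholly inside the gene spans given above, and for the others they overlap the spans in part. The RefSeq starts thus lie downstream of the starts of the counted genes, whose exon lengths enter the TPM. Capitals mark matches to any of 4 short motifs on either strand, which are named after the sequences.

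Hba-x, chr11:32276460-32276599, forward strand: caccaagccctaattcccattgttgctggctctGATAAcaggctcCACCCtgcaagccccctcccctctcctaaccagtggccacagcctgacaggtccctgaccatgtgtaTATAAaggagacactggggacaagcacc
Hba-a1, chr11:32283532-32283671, forward strand: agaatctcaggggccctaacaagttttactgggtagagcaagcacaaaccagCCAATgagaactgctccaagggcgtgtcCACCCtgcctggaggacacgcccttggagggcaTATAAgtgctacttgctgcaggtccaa
Hba-a2, chr11:32296352-32296491, forward strand: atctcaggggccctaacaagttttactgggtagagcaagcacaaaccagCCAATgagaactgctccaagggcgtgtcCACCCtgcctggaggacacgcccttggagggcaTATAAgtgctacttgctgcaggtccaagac
Hbb-y, chr7:103853208-103853347, reverse strand: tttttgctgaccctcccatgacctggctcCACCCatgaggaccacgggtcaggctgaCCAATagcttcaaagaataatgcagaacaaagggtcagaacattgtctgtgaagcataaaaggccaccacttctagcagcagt
Hbb-bs, chr7:103827929-103828068, reverse strand: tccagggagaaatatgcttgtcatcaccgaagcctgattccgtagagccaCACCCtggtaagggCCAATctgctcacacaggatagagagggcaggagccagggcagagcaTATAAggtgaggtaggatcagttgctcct
Hbb-bt, chr7:103813924-103814063, reverse strand: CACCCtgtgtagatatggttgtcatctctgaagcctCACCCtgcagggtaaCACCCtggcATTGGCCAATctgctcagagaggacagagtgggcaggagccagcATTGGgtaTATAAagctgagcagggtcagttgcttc

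CACCC occurred in 6 of 6 of these windows, against 35.6% of 32851 promoter windows of the same length, and TATAA in 5 of 6, against 13.5%. CCAAT occurred in 5 of 6, against 23.4%, and in Hbb-bt it also stood on the other strand. GATAA occurred in 1, that of Hba-x, against 12.4%. The matches did not overlap each other. The window of Hba-a2 is that of Hba-a1 moved by 3 bases, and an alignment of both gave 95.8% identity, against 72.5% for Hbb-bs and Hbb-bt. A match of letters is a description and was not tested as a binding site.

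Between 24920434 and 58782055 counts fell on genes in a library. The 7 genes together took 0.000168% and 0.000187% of the counts of the ES libraries, and 0.00063% and 0.000691% of those of HB. Their share was 0.0512% and 0.0297% in HE1, then 0.217% and 0.159% in HE2, and it reached 0.458% and 0.254% in HP. Their joint share was thus higher in every library of a stage than in every library of the stage before. Levels are given as CPM (counts relative to the scaled library size) or, where genes are compared with each other, as TPM (which also takes the exon length into account). A count of 3, taken as the floor, is 0.051 to 0.12 CPM before that scaling.

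**Figure D1:**
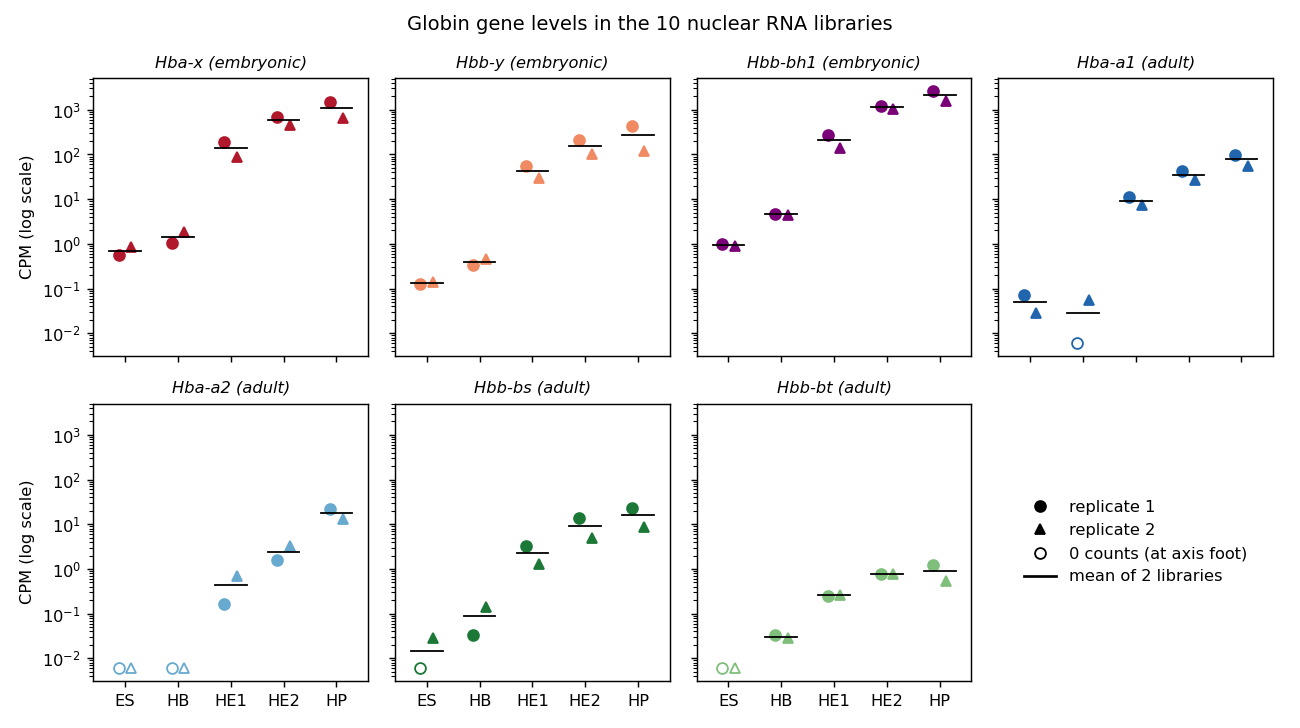
CPM of each globin gene (log axis) in the 10 libraries by stage, with replicate 1 as circles, replicate 2 as triangles, open symbols at the foot of the axis for 0 counts and lines for the mean of 2 libraries. All 7 genes sit higher in both HE1 libraries than in both HB libraries, and in HP Hbb-bh1 reaches 2622 and 1554 CPM while Hbb-bt stays at 1.23 and 0.54.

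Before hemogenic endothelium formed, the embryonic genes gave few but regular counts and the adult genes next to none. Hbb-bh1, the embryonic gene with the most counts, had 56 and 32 counts in the ES libraries and 139 and 161 in HB, which is 0.993 and 0.918 CPM and 4.6 and 4.54 CPM. Both HB libraries lay above both ES libraries, as they did for 37.7% of all tested genes. Hbb-bh1 was the only 1 of the 7 genes that was called as higher in HB than in ES, with a log2 fold change of 2.24 (SE 0.40, adjusted p = 0.00135 by the quasi-likelihood F test of edgeR, Benjamini-Hochberg adjusted over 22596 tested genes, as for all adjusted p-values that follow). A gene was called where the adjusted p was under 0.05 and the levels differed at least 2-fold. Among all tested genes, this rule called 11.5% as higher in HB and 17.3% as higher in ES. All 7 globin genes had passed the filter on low counts, which they could do through the later stages alone.

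The other embryonic genes pointed the same way without being called. Hba-x had 32 and 29 counts in ES and 32 and 64 in HB, or 0.568 and 0.832 CPM against 1.06 and 1.8, a log2 fold change of 1.08 (SE 0.63, adjusted p = 0.204). Hbb-y had 7 and 5 counts in ES and 10 and 16 in HB, a log2 fold change of 1.56 (SE 1.22, adjusted p = 0.344). The HB libraries did not overlap the ES libraries for either gene, and both genes were called when only the 4 libraries of ES and HB were fitted (adjusted p = 0.0452 and 0.0234), as well as without the filter on low counts (adjusted p = 0.000152 and 0.00467).

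Among the adult genes, Hba-a1 had 4 and 1 counts in ES and 0 and 2 in HB. Hbb-bs had 0 and 1 counts in ES and 1 and 5 in HB, and Hbb-bt 0 and 0 and 1 and 1. Hba-a2 had 0 counts in all 4 libraries. Of the 16 values, only 2 exceeded the floor of 3 counts, so that a difference between ES and HB was not detectable at this depth for any adult gene.

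The step from HB to HE1 was the largest of the series for 6 of the 7 globin genes on the log2 scale. The exception was Hbb-bt, whose value from ES to HB (3.25, adjusted p = 0.124) rests on 1 count in each HB library and 0 in ES. All 7 were called as higher in HE1, where 12.7% of all tested genes were higher and 8.19% lower. Hbb-bh1 went from 4.6 and 4.54 CPM in HB to 279 and 136 in HE1, a log2 fold change of 5.51 (SE 0.39, adjusted p = 1.27e-05). Hba-x, the zeta chain gene, reached 188 and 86.7 CPM in HE1 from 1.06 and 1.8, a log2 fold change of 6.57 (SE 0.58, adjusted p = 3.58e-05). Hbb-y, which encodes the epsilon y chain, reached 55.6 and 29.7 CPM from 0.331 and 0.451, a log2 fold change of 6.74 (SE 0.75, adjusted p = 0.000145). For each embryonic gene the lower HE1 library exceeded the higher HB library many times over, although HE1 cells still carry the endothelial marker TIE2 and lack CD41.

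The adult genes rose from almost nothing to low levels. Hba-a1 had 262 and 226 counts in HE1 (11 and 7.46 CPM) against 0 and 2 in HB, which is 297-fold by summed counts with a 95% interval of 81.7 to 2458 that covers counting error only. Hbb-bs had 76 and 40 counts (3.2 and 1.32 CPM) against 1 and 5, a log2 fold change of 4.57 (SE 0.94, adjusted p = 0.00479). Hba-a2 had 4 and 21 counts against 0 in HB, at least 10.1-fold higher when the HB libraries together are set at the floor of 3 counts (adjusted p = 0.0118). Hbb-bt had 6 and 8 counts against 1 and 1, 8.51-fold with a counting interval of 1.96 to 77.2 (adjusted p = 0.0338). Libraries of HB and HE1 did not overlap for any of the 7 genes, while 32.9% of all tested genes lay higher in both HE1 libraries than in both HB libraries.

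The calls of the adult genes with the fewest counts were fragile. That of Hbb-bt was lost with DESeq2 (adjusted p = 0.0804), with the replicate block (0.0569) and without any single library of ES, HB, HE1 or HE2 (0.052 to 0.182). Hba-a2 lost its call without HB replicate 2 (0.0628) or HE1 replicate 2 (0.0839), and Hbb-bs with limma-voom (0.0597).

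From HE1 to HE2, the stage at which CD41 appears on the cells, 5 of the 7 globin genes were called as higher again, where 3.26% of all tested genes were higher and 5.39% lower. Hbb-bh1 rose to 1225 and 1063 CPM, a log2 fold change of 2.46 (SE 0.33, adjusted p = 0.00254). Hba-x rose to 696 and 461 CPM, by 2.08 (SE 0.45, adjusted p = 0.0194). Hbb-y rose to 206 and 104 CPM, by 1.86 (SE 0.52, adjusted p = 0.0427). In all 3 embryonic genes both HE2 libraries lay above both HE1 libraries, as for 28.8% of all tested genes.

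Of the adult genes, Hba-a1 rose to 42.4 and 26.7 CPM, by 1.91 (SE 0.34, adjusted p = 0.0103), and Hba-a2 to 1.55 and 3.21 CPM, by 2.40 (SE 0.63, adjusted p = 0.0427). Hbb-bs had 13.8 and 4.92 CPM and a log2 fold change of 2.07 (SE 0.66, adjusted p = 0.0598), and Hbb-bt had 0.762 and 0.762 CPM and 1.55 (SE 0.64, adjusted p = 0.119), so neither adult beta gene was called, although no library of HE2 overlapped HE1. With the replicate number as a block, Hba-a2 was no longer called (adjusted p = 0.0531) and Hbb-bs was (0.0385). The number of called genes leaned on single libraries, since it was 1 without HE1 replicate 2 and 3 without HE2 replicate 2, HB replicate 1 or HB replicate 2. Hbb-bh1 was called in each of these fits.

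Between HE2 and HP none of the 7 globin genes was called. edgeR called 0 of 22596 genes in this comparison (0% higher and 0% lower), while at an unadjusted p under 0.05 and a 2-fold change it gave 390 as higher in HP and 527 as lower. DESeq2 called 108 higher and 193 lower, and limma-voom 35 and 27. In HP, Hbb-bh1 had 2622 and 1554 CPM, and its log2 fold change was 0.87 (SE 0.32, adjusted p = 0.44). Hba-x had 1518 and 643 CPM and 0.90 (SE 0.43, adjusted p = 0.68), and Hbb-y had 426 and 119 CPM and 0.82 (SE 0.50, adjusted p = 0.848). For the latter genes HP replicate 2 lay within the range of HE2, and without HP replicate 1 the log2 fold change of Hbb-y was -0.38.

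The adult alpha genes stood higher in both HP libraries than in both HE2 libraries, as did 15.8% of all tested genes. Hba-a1 had 98.1 and 56.5 CPM, with a log2 fold change of 1.16 (SE 0.33, adjusted p = 0.249). Hba-a2 had 21.5 and 13.4 CPM and the largest difference of the 7, 2.87 (SE 0.56, adjusted p = 0.139). DESeq2 called both (adjusted p = 0.0302 and 0.000112), limma-voom called Hba-a2 (0.0274), and so did edgeR without HE2 replicate 2 (0.0436). The adult beta genes overlapped between the stages, with 23.3 and 8.62 CPM for Hbb-bs and 1.23 and 0.54 for Hbb-bt, and log2 fold changes of 0.77 (SE 0.61) and 0.23 (SE 0.57).

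Over the whole endothelial to hematopoietic transition, from HE1 to HP, 6 of the 7 globin genes were called as higher, against 5.35% of all tested genes, with 11.2% lower. This comparison shares its HE1 and HP libraries with the steps above. Hba-a2 had a log2 fold change of 5.27 (SE 0.66, adjusted p = 0.00109), Hbb-bh1 of 3.33 (SE 0.34, adjusted p = 0.000217) and Hba-a1 of 3.07 (SE 0.35, adjusted p = 0.000381). Hba-x followed with 2.98 (SE 0.46, adjusted p = 0.00151), Hbb-bs with 2.83 (SE 0.67, adjusted p = 0.0123) and Hbb-y with 2.68 (SE 0.54, adjusted p = 0.00565). Hbb-bt was not called at 1.78 (SE 0.63, adjusted p = 0.0681). Without HE1 replicate 2 the calls of Hbb-y (adjusted p = 0.0554) and Hbb-bs (0.0878) were lost, and without HP replicate 1 that of Hbb-bs (0.116).

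**Figure D2:**
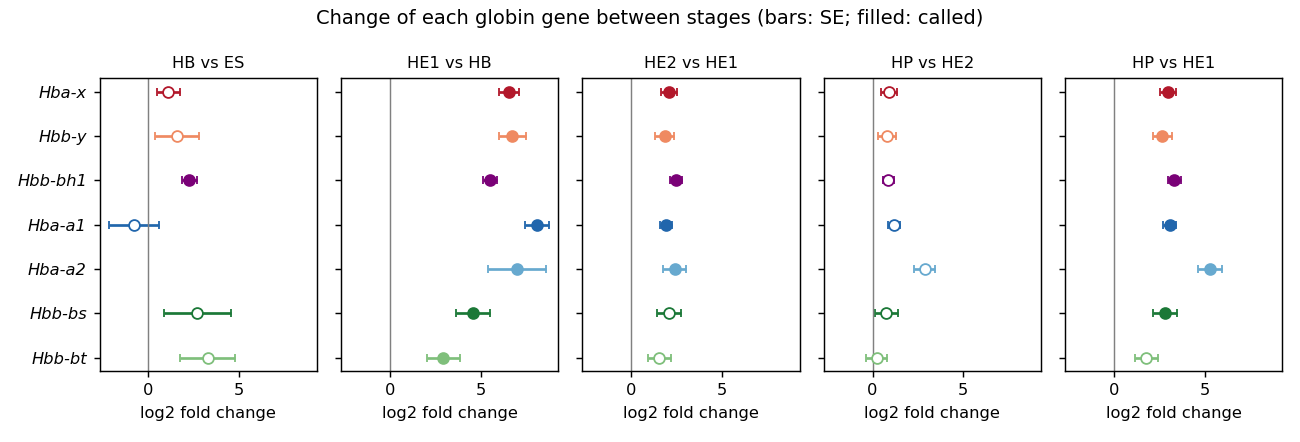
Log2 fold change of each globin gene in the 5 comparisons, on a common axis, with bars for the SE and filled symbols for genes called at an adjusted p under 0.05 and at least 2-fold. All 7 symbols are filled for HE1 vs HB and none for HP vs HE2, and Hba-a2 is not drawn for HB vs ES because it had 0 counts in both stages.

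Per length, the order of the genes was almost the same in every blood-forming stage. In HE1, Hbb-bh1 had 639 and 408 TPM, Hba-x 281 and 169.6, Hbb-y 123 and 86 and Hba-a1 19.1 and 16.9 TPM. Hbb-bs stood at 5.84 and 3.16 TPM, while Hba-a2 (0.354 and 1.91) and Hbb-bt (0.504 and 0.69) overlapped at the bottom. In HE2 no neighbours in this order overlapped. There Hbb-bh1 had 2278 and 1968 TPM, Hba-x 846 and 558, Hbb-y 370.1 and 187, Hba-a1 59.6 and 37.4, Hbb-bs 20.5 and 7.27, Hba-a2 2.66 and 5.46 and Hbb-bt 1.24 and 1.23 TPM.

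In HP, Hbb-bh1 led with 4678 and 3298 TPM. Hba-x had 1770.5 and 892 TPM, Hbb-y 737 and 244 and Hba-a1 132 and 90.5 TPM. Hba-a2 (35.2 and 26) had moved up to the range of Hbb-bs (33.1 and 14.6), and Hbb-bt stayed last at 1.92 and 1.0 TPM. The embryonic genes thus held the upper 3 places in each library of the 3 stages, and these levels are descriptive, since the adult counts leave out shared sequence.

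Within the alpha-like cluster, Hba-x made up 88.4% to 93.5% of the summed TPM in the 6 libraries of HE1, HE2 and HP. Within the beta-like cluster, Hbb-bh1 made up 82% to 92.7% and Hbb-y 6.86% to 17.3%, while reads placed on Hbb-bs made up 0.336% to 0.769% and those on Hbb-bt at most 0.138%. Summed alpha-like TPM were 0.278 to 0.391 of summed beta-like TPM in these libraries.

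**Figure D3:**
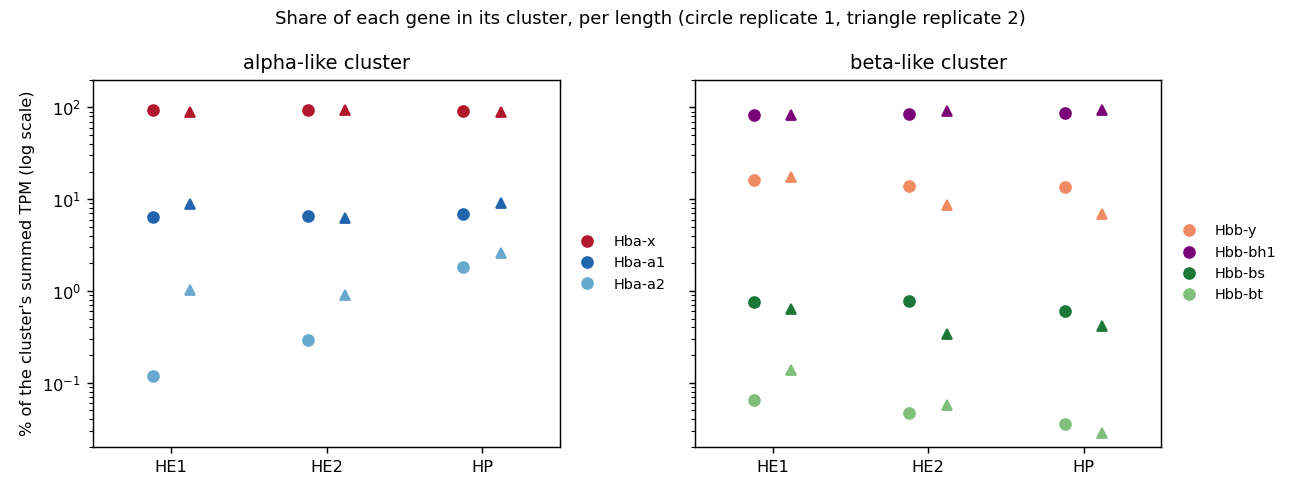
Share of each gene in the summed TPM of its cluster (log axis) in the libraries of HE1, HE2 and HP, with replicate 1 as circles and replicate 2 as triangles. Hba-x sits at 88.4% or more and Hbb-bh1 at 82% or more in every library, and Hba-a2 is the adult gene whose share differs most between HE1 and HP.

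The balance of embryonic and adult genes was then compared over the 5 stages. In counts, the 3 embryonic genes exceeded the 4 adult genes 35.7- and 25.9-fold in the HE1 libraries, 36.3- and 45.7-fold in HE2, and 31.7- and 29.3-fold in HP. The adult genes held 2.14% to 3.71% of all globin counts in these 6 libraries, with exact 95% binomial intervals that together run from 2.02% to 4.15%. In ES and HB the adult share was 1.09% to 4.04%, but it rested on 2 to 8 adult counts per library. As log2((embryonic CPM + 0.1)/(adult CPM + 0.1)), the ratio averaged 3.52 ± 0.20 (SD, n = 2) in the ES libraries and 4.80 ± 0.56 in HB. It was 4.92 ± 0.33 in HE1, 5.34 ± 0.23 in HE2 and 4.93 ± 0.08 in HP. An exact permutation test of the F statistic over all 945 assignments of the libraries gave p = 0.0624, where the smallest possible p is 0.00106. With 0.5 or 2 CPM added in place of 0.1 the same exact permutation test gave p = 0.00529 and 0.00423, and the range of the stage means went from 1.82 to 3.31 and 4.41. The adult sums in ES and HB, at most 0.225 CPM, lie below both additions, which by themselves lower the ratios of these stages. The smaller p-values therefore cannot tell a change of balance from the addition. Single pairs of stages were not tested, since an exact permutation test of 2 libraries against 2 cannot go below p = 0.333.

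In ES and HB the summed adult levels of a single cluster were 0 to 0.169 CPM, near or below the 0.1 CPM added to them, so the ratios of these stages are set largely by that addition and by the embryonic level. For the beta-like genes the log2 ratio averaged 3.39 ± 0.31 (SD, n = 2) in the ES libraries and 4.58 ± 0.48 in those of HB. It averaged 6.59 ± 0.05 in HE1, then 7.13 ± 0.74 in HE2, and 7.23 ± 0.38 at the HP stage, and the exact permutation test over the 5 stages gave p = 0.00847, adjusted over the 3 ratios 0.0254, with the ratios of ES and HB included. Hbb-y and Hbb-bh1 exceeded the reads placed on the adult beta genes of the reference 97- to 205-fold in counts in the 6 libraries of HE1, HE2 and HP, and this excess may be too high if HM-1 carries another adult pair. Without ES, where the adult beta genes had 1 count in all, the test over 4 stages gave p = 0.0762 (exact permutation). For the alpha-like genes the ratio averaged 2.41 ± 0.63 in the ES libraries and 3.57 ± 0.05 in those of HB. From HE1 on it averaged 3.73 ± 0.47, then 3.96 ± 0.03 in HE2 and 3.43 ± 0.33 at the HP stage (exact permutation p = 0.0487, adjusted 0.0624, and 0.438 without ES). Hba-x exceeded the adult alpha genes 9.2- to 16.8-fold in counts from HE1 on. Whether the clusters differed from each other was not tested.

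**Figure D4:**
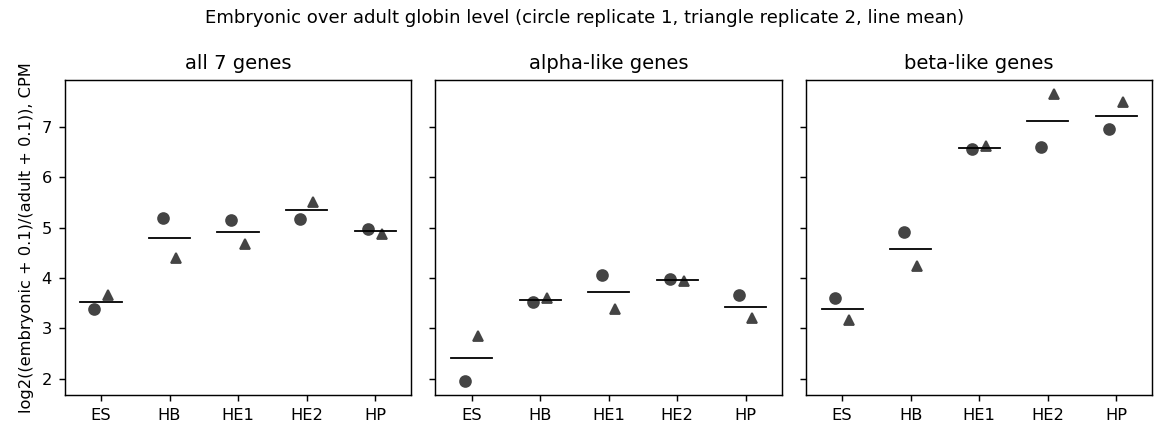
Log2 ratio of embryonic to adult globin CPM, with 0.1 CPM added to both, in the 10 libraries for all 7 genes and for each cluster, where lines mark the mean of 2 libraries. The beta-like ratio averages 3.39 in ES and 7.23 in HP, and the stage means of the alpha-like ratio lie between 2.41 and 3.96.

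Because shared adult sequence enters these ratios, they were also set per kilobase of exon that no other gene shares, a choice made after seeing the data. Per kilobase of all exons the embryonic genes exceeded the adult genes 29.3- to 52.8-fold in HE1, HE2 and HP, and per kilobase of unshared exon 10.5- to 18.6-fold. For the alpha-like genes the same correction took the excess from 7.65- to 14.5-fold to 2.39- to 5.24-fold, and for the beta-like genes from 120- to 253-fold to 59.8- to 125-fold. The embryonic genes remained the higher class in each of these libraries.

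Within the adult alpha pair, Hba-a2 took a larger part of the counts in HP than before. It held 1.5% (exact 95% interval 0.411% to 3.8%) and 8.5% (5.34% to 12.7%) of the counts of Hba-a1 and Hba-a2 in HE1, 3.53% and 10.7% in HE2, and 18% (16.9% to 19%) and 19.1% (17.5% to 20.8%) in HP. The HP libraries lay above all 4 others, and replicate 2 lay above replicate 1 in HE1 and HE2 by more than counting error. With 1 base between the coding sequences, these shares rest on the parts of the genes outside the shared stretches. In the embryonic beta pair, Hbb-y held 16.6% and 17.9% of the counts of Hbb-y and Hbb-bh1 in HE1. Its part was 14.4% and 8.92% in HE2 and 14% and 7.1% at the HP stage, so the 2 libraries of HE2 and of HP differed from each other by more than counting error.

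For some globin genes the 2 libraries of a stage differed by more than the stages HE2 and HP did. In HP replicate 1 was higher for 7 of 7 genes, by 1.61-fold (Hba-a2) to 3.59-fold (Hbb-y), and in HE1 and HE2 for 5 of 7. In bulk RNA, fewer cells of a type and less RNA per cell cannot be told apart, so the makeup of the sorted cells was read from marker lists beside these values. Summed over 14 erythroid marker genes, the level was 117 and 68.7 CPM in HE1. It was 398 and 296 CPM in HE2 and 762 and 608 at the HP stage, so here too replicate 1 was the higher library in each stage. Their part in the globin differences was not tested.

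**Figure D5:**
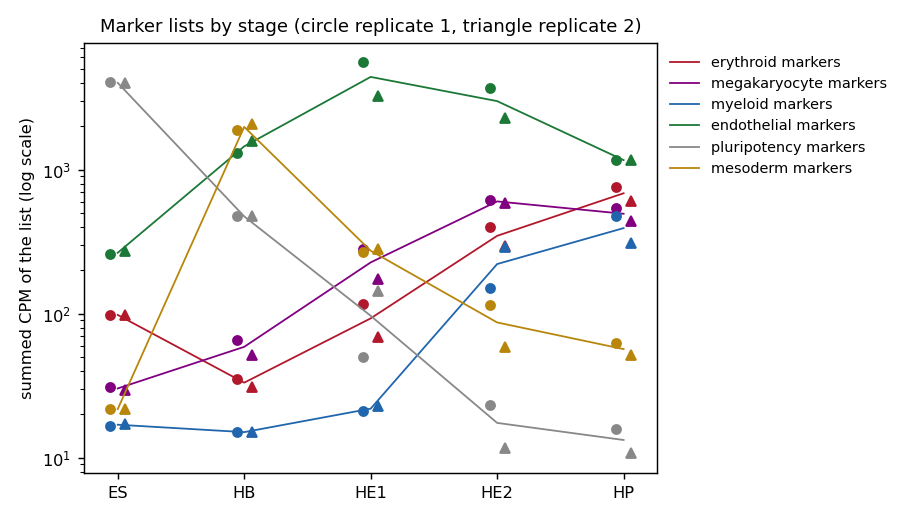
Summed CPM (log axis) of 6 marker lists in the 10 libraries, with replicate 1 as circles, replicate 2 as triangles and lines through the stage means. Erythroid markers sum to 35.2 and 31.2 CPM in HB and to 762 and 608 in HP, and pluripotency markers are at 49.8 and 144 in HE1.

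The erythroid markers moved with the globin genes from HB on. Of the 13 tested, 9 rose and 1 fell from HB to HE1 (median log2 fold change 3.91, against 0.04 over all tested genes), 6 were higher in HE2 than in HE1 (1.84, against -0.08), 0 were called in HP against HE2 (0.94, against 0.01), and 12 were higher in HP than in HE1 (2.73, against -0.02). The shares of all tested genes that rose were 12.7% from HB to HE1, where 8.19% fell, 3.26% from HE1 to HE2, 0% from HE2 to HP and 5.35% from HE1 to HP. Of the 14 markers, 12 had counts in each ES library, 11 and 14 in the HB libraries, 13 in each HE1 library and all 14 in HE2 and HP. Sptb, the erythroid beta spectrin, rose from 15.3 and 14.8 CPM in HB to 46 and 27.1 in HE1, a log2 fold change of 1.28 (SE 0.21, adjusted p = 0.00144), and had 277 and 277 CPM in HP. Slc4a1, the band 3 anion exchanger of the red cell membrane, rose from 0.264 and 0.0845 to 13.7 and 8.39 CPM, by 6.0 (SE 0.96, adjusted p = 0.00119). Ank1, which anchors spectrin to the membrane, rose by 4.0 (SE 0.49, adjusted p = 0.000245) from HB to HE1.

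Markers of other lineages were read in the same sorted cells, where 3.26% of all tested genes rose from HE1 to HE2, and 5.35% rose and 11.2% fell from HE1 to HP. Of 10 myeloid markers, 8 were higher in HE2 than in HE1 (median log2 fold change 4.11, against -0.08 over all tested genes) and 9 in HP than in HE1 (4.94, against -0.02), among them Mpo, the neutrophil peroxidase (6.9 and 1.42 CPM in HE1 and 247 and 111 in HP), and Spi1, the myeloid factor PU.1 (1.85 and 2.48 and 82.3 and 56.7). Of 9 tested megakaryocyte markers, 8 rose and 1 fell from HE1 to HP (median 2.17). Itga2b, which encodes the sorted antigen CD41, went from 227 and 127 CPM in HE1 to 505 and 469 in HE2. Of 10 endothelial markers, 9 were lower in HP than in HE1 (median -2.54), with Cdh5, the endothelial cadherin, at 1431 and 798 CPM in HE1 and 118 and 179 in HP. Pluripotency markers were low after HB, but HE1 replicate 2 held more pluripotency RNA than HE1 replicate 1, as in Pou5f1 (2.82 and 26.3 CPM) and Dppa5a (1.22 and 21.6).

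Regulators of globin genes were looked at next. Of 17 such genes, 9 rose and 2 fell from ES to HB (median log2 fold change 1.56, against 0 over all tested genes), 5 rose and 1 fell from HB to HE1 (0.34, against 0.04), and 8 rose from HE1 to HE2 (0.83, against -0.08). Among all tested genes, 11.5% rose and 17.3% fell at the first of these steps, 12.7% and 8.19% at the next, and 3.26% rose at the last. None was called in HP against HE2, a comparison in which 0 of 22596 tested genes were called. Tal1, a basic helix-loop-helix factor needed for all blood cells, rose from 4.98 and 4.7 CPM in ES to 145 and 171 in HB, by 5.02 (SE 0.29, adjusted p = 1.21e-06), and had 185 and 109 CPM in HE1, where its log2 fold change of -0.10 (SE 0.24) was not called. Zfpm1, which encodes the GATA1 partner FOG-1, rose from 17 and 16.1 to 232 and 255 CPM, by 3.88 (SE 0.17, adjusted p = 4.09e-07). Both were thus at high levels in HB, where the globin genes together had 7.01 CPM or less per library. By contrast, the 5 regulators that rose from HB to HE1 did so at the same step as the globin genes. Gata1, the erythroid GATA factor, was named after its values were seen. It had 2.51 and 2.65 CPM in HB and 5.55 and 2.41 in HE1, then rose to 24.5 and 38.5 CPM in HE2, by 3.0 (SE 0.36, adjusted p = 0.00138). Myb, a progenitor factor, rose from 22.6 and 7.13 CPM in HE1 to 125 and 227 in HE2, by 3.57 (SE 0.45, adjusted p = 0.00185). Klf2, a factor of endothelium and of embryonic red cells, was 1 of the 5 that rose from HB to HE1, by 2.55 (SE 0.44, adjusted p = 0.00193). After HE1 it went the other way, from 135 and 61.5 CPM to 19.6 and 24.4 in HP, a log2 fold change of -2.16 (SE 0.43, adjusted p = 0.00584).

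Hemoglobin also needs haem and iron. Of 13 tested genes of haem synthesis and iron uptake, 1 rose and 1 fell from HB to HE1 (median log2 fold change 0.08, against 0.04 over all tested genes), which is no larger a share than the 12.7% and 8.19% of all tested genes. From HE1 to HE2, 2 of the 13 rose (0.75, against -0.08), next to 3.26% of all tested genes, and from HE1 to HP 7 rose (1.15, against -0.02), next to 5.35%. Fech, which inserts iron into the porphyrin ring, rose from 30.5 and 30.3 CPM in HB to 67 and 65.7 in HE1, by 1.13 (SE 0.12, adjusted p = 0.000137). Tfrc, the transferrin receptor, fell from 407 and 459 to 104 and 80.3 CPM, a log2 fold change of -2.23 (SE 0.18, adjusted p = 1.96e-05), and rose to 236 and 256 CPM in HE2, by 1.41 (SE 0.17, adjusted p = 0.0014). Cpox, an enzyme of an earlier step of the pathway, had 139 and 98.8 CPM in HP and was called against HE1, with a log2 fold change of 1.27 (SE 0.18, adjusted p = 0.00105).

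Other genes within the globin clusters were counted too. The pseudogene Hbb-bh0, with 129 bp of exon that starts 1.6 kb beyond the end of Hbb-y on the same strand, had 3 and 2 counts in the ES libraries and 3 and 12 in those of HB. It had 543 and 304 counts in HE1, then 3205 and 1872 in HE2, and reached 9438 and 2789 in HP. It was called in HE1 against HB (log2 fold change 6.15 (SE 0.69, adjusted p = 0.000159)) and in HE2 against HE1 (2.26 (SE 0.47, adjusted p = 0.0175)). Hbq1b, a theta globin gene 2.5 kb beyond Hba-a1, had 37 and 96 counts in HE2 and 545 and 49 in HP. Hbb-bh2, 1.12 kb beyond Hbb-bh1, had 53 and 24 counts in HP and at most 17 in any other library, and Hbb-bh3 had 0 counts throughout. Whether these reads come from transcripts of their own or from RNA of the gene before them was not tested.

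The neighbours of the clusters within 100 kb were counted as well. Of 19 genes around the beta-like cluster, of which 13 are olfactory receptor genes, only 3 were tested, and the 2 that were called in any comparison, Hbb-bh0 and Hbb-bh2, lie inside the cluster. Of 9 genes around the alpha-like cluster, 7 were tested, of which 2 rose and 1 fell from HB to HE1, 3 rose from HE1 to HE2, and 3 rose and 1 fell from HE1 to HP. The shares of all tested genes were 12.7% higher and 8.19% lower at the first of these, 3.26% higher at the next, and 5.35% higher and 11.2% lower from HE1 to HP. The genes that rose in both of the later comparisons were Hbq1b, inside the cluster, Il9r and Snrnp25. Rhbdf1 rose from 49.1 and 36.7 CPM in HB to 153 and 149.8 in HE1, by 1.82 (SE 0.23, adjusted p = 0.00034), and Snrnp25, a splicing gene, fell from 25.5 and 33.4 to 12 and 12 CPM, a log2 fold change of -1.29 (SE 0.26, adjusted p = 0.00453). Snrnp25 then rose to 22.3 and 35 CPM in HE2, by 1.25 (SE 0.26, adjusted p = 0.0179). Il9r, the receptor of interleukin 9, rose from 0.925 and 0.595 CPM in HE1 to 5.09 and 8.86 in HE2, by 3.21 (SE 0.40, adjusted p = 0.00163). Sh3pxd2b had 287 and 212 CPM in HE1 and fell to 78 and 91.1 in HP, a log2 fold change of -1.56 (SE 0.22, adjusted p = 0.00101).

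The genes whose log2 CPM followed the globin genes most closely were sought among 12229 others with at least 9 CPM in a stage, by Pearson's r over the 10 libraries, as a description. The libraries form 5 stages, so a high r mainly reflects the order of the stages. For the mean of the embryonic genes the 5 closest were Hbb-bh0 (r = 0.998), Fbxo9 (0.997), Arhgdib (0.993), Tln1 (0.993) and Creg1 (0.992). Apart from Hbb-bh0, which had stage means of 0.219 CPM in HB and 152 in HP, these genes changed less, with stage means for Arhgdib of 7.2 CPM in HB and 209 in HP, and for Fbxo9 of 14.2 and 35.9. For the mean of the adult genes, 4 of the 5 closest were Fech (0.994), Hbb-bh0 (0.991), Lyz2 (0.990) and Ank1 (0.989).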

How the data were processed

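The 7 genes, their split into embryonic and adult, and the gene lists were chosen with earlier results of these data known. Per the labels and the methods of the study, the authors used HISAT2 (v2.2.1) to align trimmed reads of nuclear RNA to mm10, and counted read pairs on Ensembl exons with featureCounts, in the reverse-stranded mode and on each gene that a pair overlapped, without pairs that align to several places. The deposited counts, 1 table per library, are raw. A further deposited table gives 15686 genes a normalized score per stage, averaged over its libraries; all 7 genes are in it, and its values were not used further. Depth, as the total of counts on genes, ranged from 24920434 to 58782055, and intervals and floors cover counting error only.

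Stages were compared in R (v4.3.3) by means of edgeR (v4.0.16). After filterByExpr, 22596 genes were scaled with TMM and fitted by quasi-likelihood, stage being the single term, over all 10 libraries (5 residual degrees of freedom). Adjusted p-values are Benjamini-Hochberg values over all tested genes. CPM use the scaled library sizes, and log2 CPM for likeness a prior count of 2. Ratios were tested with an exact permutation test of the F statistic. The text names all 7 genes, of each list up to 4 genes with the highest mean CPM among those called in any comparison, and the 5 genes of closest pattern per class, apart from some genes that are not reported here. The gene lists come from general knowledge of the lineages, and 105 of 106 listed genes matched (not Ahsp). Hbb-b1 and Hbb-b2, the adult beta genes of other strains in the RefSeq table, have no row in the count tables and were not analysed here. Transcripts came from GENCODE mouse release 21. The alternatives were limma-voom (v3.58.1), DESeq2 (v1.42.0), total counts, no filter, only the libraries compared, a replicate block, library sizes without the 7 genes and the 20 genes with the most counts, no minimum fold, and each library left out in turn, and for the ratios other pseudocounts, exon length and the stages without ES. The model and the permutation test were checked on simulated data. Sequences and ratios were handled in Python (v3.11.15).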

Additional observations from a re-analysis of the deposited data

How the results depend on the processing

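With 2 libraries per stage, low counts limit the adult beta genes and everything in ES and HB. Of 589 log2 fold changes of single globin genes under the alternatives, 536 kept their direction and their side of the thresholds, 33 lost a call, 15 gained one, and 5 changed sign, none of them called. Those were Hba-a1 in HB against ES without ES replicate 1 (0.084) or HB replicate 1 (0.07), and, in HP against HE2 without HP replicate 1, Hbb-y (-0.38), Hbb-bs (-0.12) and Hbb-bt (-0.49). With a library left out, the log2 fold change of Hba-a1 in HB against ES ran from -4.03 to 0.084, and that of Hbb-bs and Hbb-bt in HP against HE2 reached 1.70 and 0.69. The cause was not tested.

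Called globin genes in HB against ES numbered 3 with no filter and 3 with only the libraries compared, in place of 1. In HP against HE2 they numbered 1 with limma-voom, 2 with DESeq2 and 2 with no filter, in place of 0. Leaving out a library gave 1 in each fit for HB against ES, 5 to 7 for HE1 against HB, 1 to 6 for HE2 against HE1, 0 to 1 for HP against HE2 and 4 to 6 for HP against HE1. No other alternative moved a count by over 1.5 times.

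The range of the stage means of the log2 embryonic to adult ratio, 1.82 for all genes, was 3.31 with a pseudocount of 0.5 CPM (exact permutation p = 0.00529) and 4.41 with 2 CPM (p = 0.00423, exact permutation), since the adult sums in ES and HB lie below these pseudocounts. For the beta-like genes it was 3.84, and 2.65 without ES. For the alpha-like genes it was 1.55, against 1.11 per kilobase of exon (exact permutation p = 0.184), 0.53 without ES and 1.84 per kilobase of unshared exon (exact permutation p = 0.148), the last chosen after seeing the data. Without single libraries the range was 1.66 to 1.99 for all, 3.62 to 4.27 for beta-like and 1.10 to 2.0 for alpha-like genes.

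Libraries with the same replicate number did not deviate together: of 10 pairs of stages, the correlation of deviations from the stage means exceeded 0.1 in 2, and ranged from -0.32 to 0.21. The replicate block gave 1, 6, 5, 0 and 6 called globin genes in the 5 comparisons, and it ended the call of Hbb-bt in HE1 against HB (log2 fold change 2.96) and of Hba-a2 in HE2 against HE1 (2.44), and gave one for Hbb-bs there (2.01). The genes of closest pattern changed with the measure: 1 of 5 embryonic and 0 of 5 adult ones were shared with Spearman's rho, and 2 and 1 with the stage means.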

Other observations

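Globins outside the clusters were counted too. Cygb, cytoglobin, rose from 0.0887 and 0.23 CPM in ES to 1.32 and 2.08 in HB, a log2 fold change of 3.47 (SE 0.65, adjusted p = 0.00171) by edgeR, and had 1.05 and 1.08 CPM in HP. Mb, the muscle oxygen carrier myoglobin, stayed under 1 CPM in every library, with 19 and 12 counts in ES and 0 and 1 in HP. It was called as lower in HB than in ES (-2.79 (SE 0.93, adjusted p = 0.0344)), higher in HE1 than in HB (3.14 (SE 0.94, adjusted p = 0.0275)) and lower in HP than in HE1 (-4.67 (SE 1.09, adjusted p = 0.012)). Adgb, androglobin, had 33 and 21 counts in ES and 1 and 3 in HB and was called as lower in HB (-3.23 (SE 0.87, adjusted p = 0.0128)). Of the 4 genes of this list, 1 rose and 2 fell from ES to HB, next to 11.5% and 17.3% of all tested genes. From HB to HE1, 1 rose and 0 fell, next to 12.7% and 8.19%. From HE1 to HP, 0 rose and 1 fell, next to 5.35% and 11.2%.

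Mesoderm markers were the list that rose most from ES to HB, with 10 of 10 genes called as higher and a median log2 fold change of 6.60, against 0 over all tested genes, of which 11.5% rose. Their summed level was 1885 and 2073 CPM in HB, at a stage where the globin genes summed to 6.05 and 7.01 CPM, and 62.2 and 51.5 CPM in HP.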
